A study of Mus musculus with 24 samples.

Results

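The genes described here are the 10 regulators of entry into the cell cycle that the count table lists under the symbols Ccnd1, Ccnd2, Ccnd3, Cdk4, Cdk6, Cdkn1b, Cdkn1c, Cdkn2a, Cdkn2c and Cdkn2d, out of 55487 genes in all. They were chosen by name, as D cyclins, their kinases and the inhibitors of those kinases. All 10 passed the filter on low counts, which left 23059 genes for testing, although Cdkn2a held 3 counts or fewer in 15 of the 24 libraries.

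RNA was sequenced from sorted mouse blood progenitors in 6 groups of 4 libraries, which the design text calls biological replicates. The mice were wild type (WT) or carried a Tet-off transgene for human MLL::ENL (abbreviated ME), a leukaemia fusion of the histone methyltransferase MLL with the elongation factor ENL. Cells from newborns (postnatal day 0, P0) came from the liver, in a WT group and a group with ME induced at E10.5, an embryonic day. Cells from mice aged 28 days (P28) came from the bone marrow, in a WT group, a group with ME induced at E10.5, a group with ME induced at P0, and a further ME group induced at E10.5. The labels name this last group RLT Vav Txp and do not expand the name, and they do not give the promoter that drives the transgene. Liver was taken at P0 and marrow at P28, so age and tissue cannot be told apart. The labels call the cells LSK, meaning lineage-negative, Sca-1-positive and KIT-positive, whereas the design text speaks of lineage-negative KIT-positive progenitors.

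D-type cyclins accumulate in G1 when growth signals arrive and activate CDK4 and CDK6, which phosphorylate the RB family of pocket proteins and so free E2F factors to switch on the genes of S phase. INK4 inhibitors (p16, p18 and p19, from Cdkn2a, Cdkn2c and Cdkn2d) bind CDK4 and CDK6 directly. CIP/KIP inhibitors (p27 and p57, from Cdkn1b and Cdkn1c) act on cyclin and CDK complexes more broadly. In blood stem cells, p57 and p27 are known for holding cells out of cycle, p18 for limiting their self-renewal, and CDK6 for setting how fast they leave rest.

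Library totals ran from 31233688 to 89774511 counts, so that a level of 1 CPM, the counts-per-million value after TMM scaling of library totals, stood for 31.2 reads in the smallest library. Kit, Ly6a, Cd34, Flt3 and Ptprc, the genes used here as markers of the gate, were detected in every group. The P0 libraries numbered 1 stood apart from the other P0 libraries. The summed level of 8 erythroid markers was 231 CPM in the WT library and 73.8 CPM in the ME library numbered 1, against 3655 to 11657 CPM in the other 6, and that of 8 macrophage markers was 117 and 114 CPM against 1099 to 1549 CPM. P0 WT library 4 lay furthest out on the leading principal component of all genes, at -98.96 against -55.3 to 8.75 for the other P0 libraries, and held the highest Cdk4, Cdkn1b and Cdkn2d of all 24. In the RLT Vav Txp group the macrophage sum was 576 to 2476 CPM, against 40.4 to 95.1 CPM in the other 12 P28 libraries. The gate markers Flt3 and Cd34 were lower there than in P28 WT, by a log2 fold change of -2.40 (SE 0.33, adjusted p = 7.23e-05 by edgeR) and -1.25 (SE 0.20, adjusted p = 0.000407 by edgeR). In sorted cells in bulk, a lower level from fewer cells of a type and a lower level per cell cannot be told apart.

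**Figure D1:**
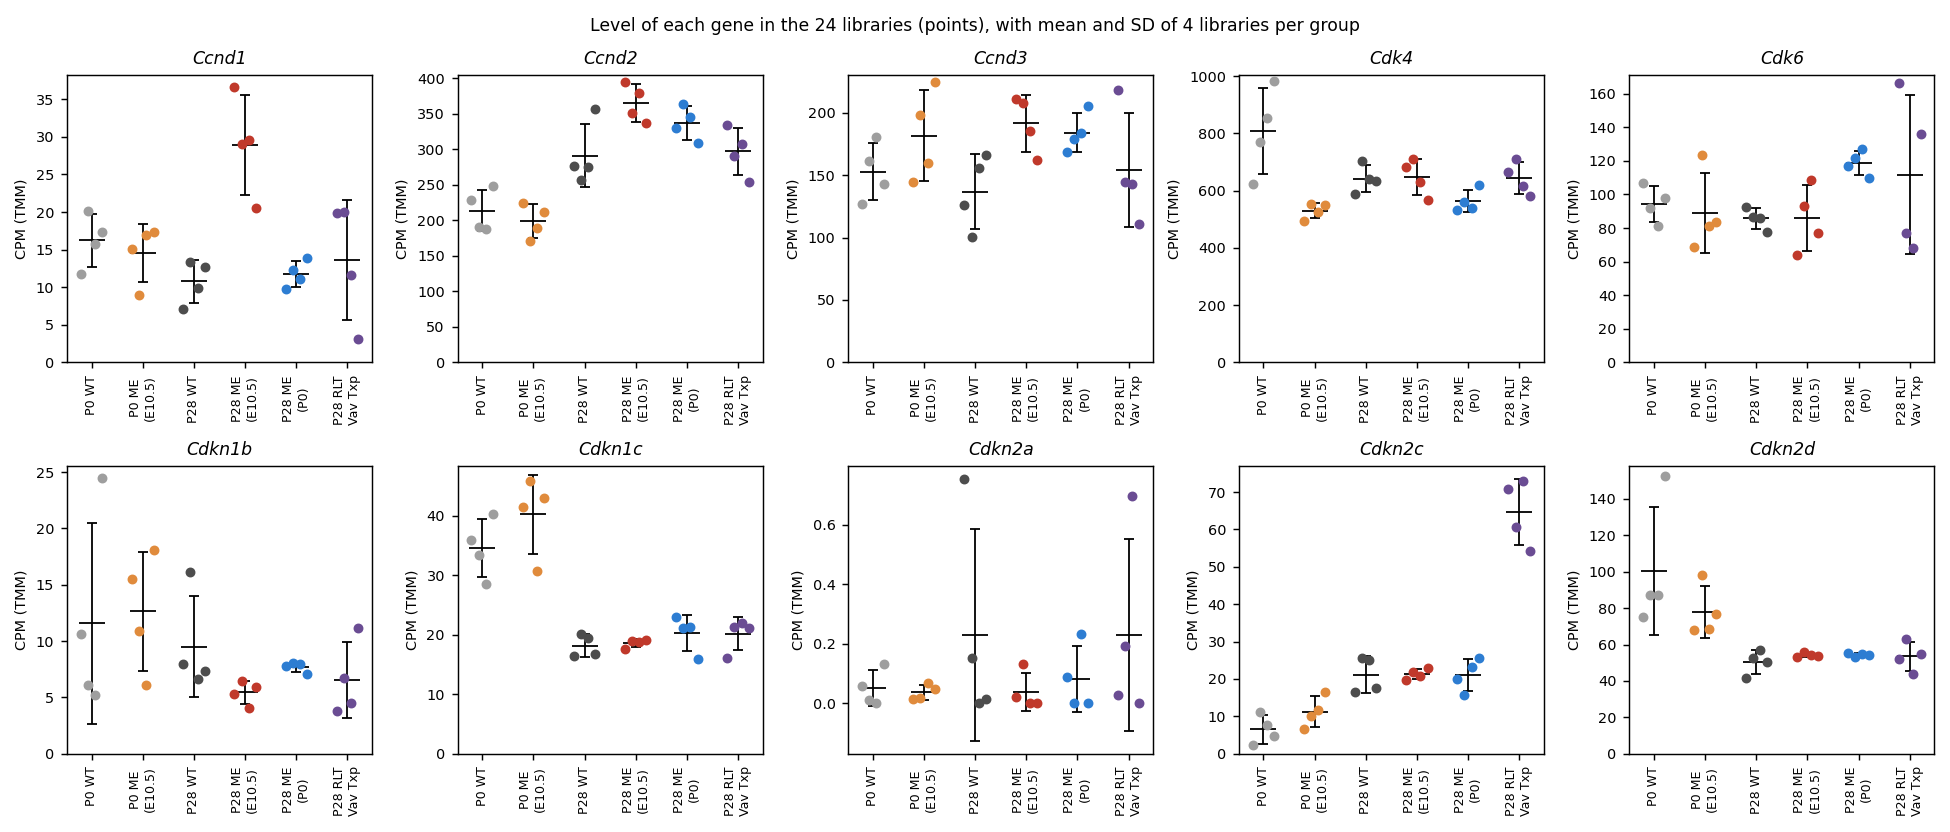
Level of the 10 genes in CPM scaled by TMM (y axis, linear), by group (x axis), with 1 point per library and the mean and SD of 4 libraries as bars; ME is MLL::ENL with the time of induction in brackets. Ccnd1 stood highest in P28 ME induced at E10.5 (20.5 to 36.6 CPM), Cdkn2c in the RLT Vav Txp group (54.2 to 72.9 CPM), and Cdkn1c and Cdkn2d in both P0 groups.

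Few of the 10 genes were called by edgeR in any comparison of ME with WT. A gene was called when its edgeR adjusted p was under 0.05 over all 23059 genes tested. At P0, Cdk4 was the 1 member called in ME against WT, and it was lower, in a comparison that called 0.642% of all genes. At P28, Ccnd1 was the 1 member called after induction at E10.5, and it was higher, where 12.3% of all genes were called. After induction at P0, 0 of the 10 were called by edgeR and 0 by DESeq2, against 1.57% of all genes, with 2 members (Ccnd3 and Cdk6) at an unadjusted p under 0.05, near the 20.2% of all genes, and 2 called by limma voom, which called 21.7% of all genes. In RLT Vav Txp against P28 WT, Cdkn2c was the 1 member called, higher, where 4.12% of all genes were called. These 3 comparisons at P28 share their WT libraries. In the order of these 4 comparisons the median log2 fold change of the 10 members was -0.09, 0.02, 0.12 and 0.12, against -0.01, -0.10, -0.09 and 0.01 over all genes. The larger share lay between the ages, with 4 of the 10 called in WT and 4 in ME induced at E10.5, against 7.68% and 18.2% of all genes. Libraries of the ages did not overlap for 4 members and 9.27% of all genes in WT, and for 6 members and 25.4% of all genes in ME.

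**Figure D2:**
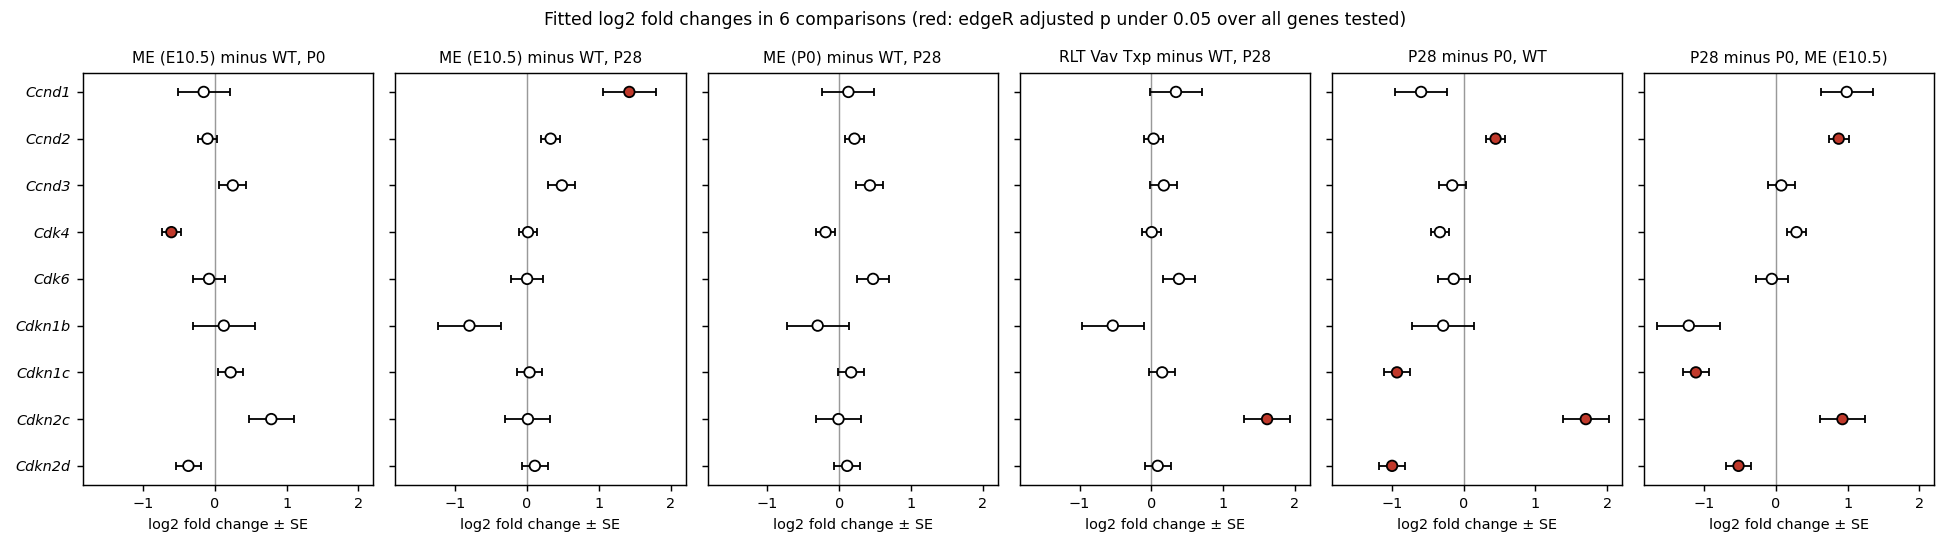
Fitted log2 fold changes with their SE (x axis) for 9 of the genes (y axis) in 6 comparisons, 1 per panel; red points passed an edgeR adjusted p of 0.05 over all genes tested, and Cdkn2a is left out for its low counts. Each comparison with WT at P0 or P28 holds at most 1 red point, and both comparisons of P28 with P0 hold 4.

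Among the D cyclins, Ccnd2 and Ccnd3 made up nearly all of the message and Ccnd1 little of it. Levels per length (RPKM, which divides CPM by the exon length in kilobases) allow genes to be compared with each other. In P28 WT, Ccnd2 held 63.5% ± 2.74, Ccnd3 31.8% ± 3.54 and Ccnd1 4.75% ± 1.48 of the D cyclin total (SD, n = 4). In P28 ME induced at E10.5 the Ccnd1 share was 9.10% ± 1.28 (SD, n = 4), the highest mean of the 6 groups, and its lowest library (7.43%) stood above the highest P28 WT library (6.85%). The summed D cyclin level was 48.8 ± 7.74 RPKM in P28 WT, 66.8 ± 6.25 in P28 ME induced at E10.5, 59.3 ± 2.19 in P28 ME induced at P0 and 52.0 ± 9.93 in RLT Vav Txp, and lower at P0, with 45.0 ± 4.6 in ME and 43.6 ± 2.11 in WT (SD, n = 4). The P28 WT and E10.5-induced libraries overlapped in this sum, at 41.5 to 59.5 and 58.6 to 73.8 RPKM.

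**Figure D3:**
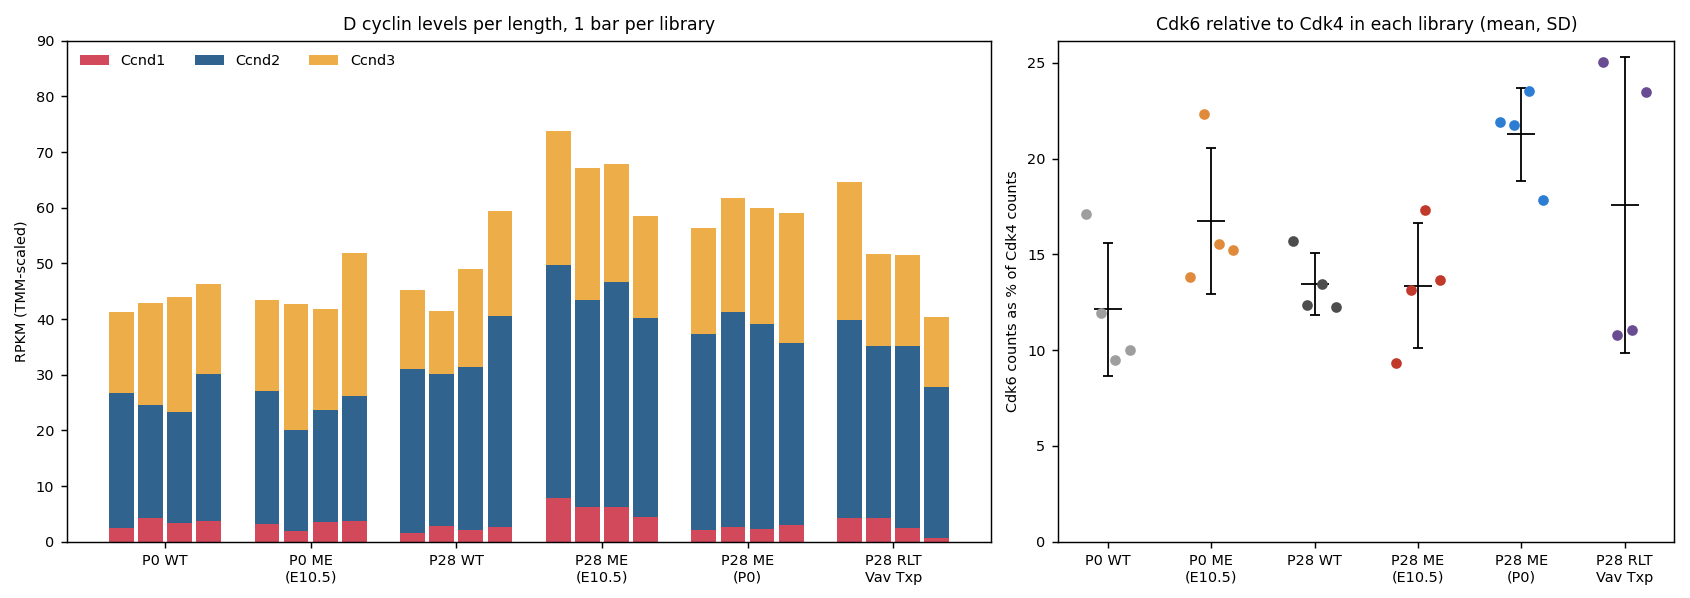
Left, the RPKM of Ccnd1, Ccnd2 and Ccnd3 stacked in each library (y axis), 4 bars per group. Right, Cdk6 counts as a percentage of Cdk4 counts in each library, with the group mean and SD; the 4 libraries of P28 ME induced at P0 lie between 17.8% and 23.5%, above the 4 P28 WT libraries at 12.2% to 15.7%.

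Ccnd1 (ENSMUSG00000070348; GRCm38 chromosome 7, 144929931 to 144939925, minus strand) codes for cyclin D1, the D cyclin that many mitogen pathways induce. In CPM, the P28 WT libraries 1 to 4 held 7.16, 13.4, 9.92 and 12.7, and the P28 libraries with ME induced at E10.5 held 36.6, 29.0, 29.6 and 20.5. Every E10.5-induced library stood above every WT library. Of 62 cell type markers tested in the same comparison, 5 were called by edgeR: Mecom (1.51 in log2) and the erythroid Epb42 (2.09) were higher, and Procr (-0.78), Pf4 (-1.50) and Prss34, at 0 to 14 counts per ME library, were lower. None of the 8 macrophage markers was among them. The difference was 2.68-fold (log2 fold change 1.42, SE 0.37, edgeR adjusted p = 0.0132). It kept its call under all 9 other settings of scaling, filter, test and samples, and lost it when the lowest WT library, number 1, was left out (log2 fold change 1.22, edgeR adjusted p = 0.0683). LTO1, a gene on the opposite strand that shares 1100 bp (23.4%) of the Ccnd1 exons, showed a log2 fold change of -0.02 (edgeR adjusted p = 0.976). The strand setting of the counts was not given in the sources used here, so reads of a member and of a gene opposite to it cannot be told apart. Over 5 such overlapping genes and 10 comparisons, 5 of 50 tests were called, and those beside a result are given with it.

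The rise of Ccnd1 was seen with induction at E10.5 and not called with induction at P0, but the difference between these groups did not pass the test across all genes. With ME induced at P0 the P28 libraries held 9.76, 12.3, 11.1 and 13.9 CPM, inside or next to the range of P28 WT. Set directly against induction at E10.5, Ccnd1 was 2.46-fold lower without overlap between the libraries, a log2 fold change of -1.30 (SE 0.37, adjusted p = 0.522 by edgeR). That comparison called 0.0477% of all genes and 0 of the 10 members by edgeR, with 2 members and 4.33% of all genes at an unadjusted p under 0.05, 0 members called by DESeq2 and 3 called by limma voom, which called 10.1% of all genes. Libraries failed to overlap for 3 members (Ccnd1, Cdk6 and Cdkn1b) and for 11.8% of all genes. Voom gave Ccnd1 an adjusted p of 3.84e-05, and a fit of these 2 groups alone gave an edgeR adjusted p of 0.000764.

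In the RLT Vav Txp libraries Ccnd1 stood at 19.9, 19.9, 11.6 and 3.16 CPM, the widest spread of the 6 groups. It was lower than in the E10.5-induced group at the same age, with a log2 fold change of -1.08 (SE 0.36, adjusted p = 0.0400 by edgeR). It missed the threshold in 5 of the 8 fits without 1 library (E10.5-induced 1, 2 or 3, RLT Vav Txp 3 or 4), with the log2 fold change between -1.33 and -0.72. In this comparison 2 of the 10 members and 17.9% of all genes were called, and 3 members (Ccnd1, Ccnd2 and Cdkn2c) and 25.7% of all genes did not overlap.

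At P0, Ccnd1 held 11.7, 20.2, 15.8 and 17.3 CPM in WT and 15.1, 8.97, 16.9 and 17.3 CPM in ME, so the groups overlapped (log2 fold change -0.16, SE 0.36, edgeR adjusted p = 0.895). The effect of ME at P28 minus that at P0, a test of the interaction, was 1.58 on the log2 scale (SE 0.51, adjusted p = 0.124 by edgeR). It called 0.720% of all genes and 0 of the 10 members by edgeR, DESeq2 or limma voom, with 3 members (Ccnd1, Ccnd2 and Cdk4) and 16.5% of all genes at an unadjusted p under 0.05. In order of their means, the groups ran from P28 ME induced at E10.5 (28.9 ± 6.60) through P0 WT (16.2 ± 3.51), P0 ME (14.6 ± 3.87), RLT Vav Txp (13.6 ± 8.01) and P28 ME induced at P0 (11.8 ± 1.75) to P28 WT (10.8 ± 2.83 CPM; SD, n = 4). From P0 to P28 in E10.5-induced ME the log2 fold change was 0.99 (SE 0.36, edgeR adjusted p = 0.0592), without overlap, and it was called under 5 of 9 other settings (adjusted p from 0.0102 to 0.0481). Only the leading step in the order of means separated neighbouring groups without overlap.

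Ccnd2 (ENSMUSG00000000184; GRCm38 chromosome 6, 127125162 to 127152193, minus strand) codes for cyclin D2, a D cyclin of blood and lymphoid cells. It was higher in marrow at P28 than in liver at P0. In CPM, P0 WT held 229, 191, 188 and 248, and P28 WT held 277, 256, 275 and 356. The lowest P28 library stood above the highest P0 library, and the log2 fold change was 0.44 (SE 0.14, edgeR adjusted p = 0.0434). It missed the threshold in 5 of the 8 fits without 1 library (P0 WT 2 or 3, P28 WT 1, 3 or 4), with log2 fold changes of 0.33 to 0.52. The WT call was also lost with no filter on low counts (0.456, edgeR adjusted p = 0.123). Fitting only the WT groups lost it too (0.465, edgeR adjusted p = 0.275). In ME induced at E10.5, the P0 libraries held 224, 172, 189 and 212 CPM and the P28 libraries 394, 351, 380 and 337 CPM. The groups lay far apart, with a log2 fold change of 0.88 (SE 0.14, adjusted p = 0.000114 by edgeR) that kept its call without any 1 library.

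Within P28, Ccnd2 was 331, 364, 345 and 309 CPM with ME induced at P0 and 335, 290, 308 and 255 CPM in RLT Vav Txp, and these overlapped P28 WT. With ME induced at E10.5, the log2 fold change against P28 WT was 0.33 (SE 0.14, edgeR adjusted p = 0.114). Limma voom called it (0.34, adjusted p = 0.00694), as did edgeR without P28 WT library 4 (0.45, edgeR adjusted p = 0.0432). The age effect in ME minus that in WT was 0.43 on the log2 scale (SE 0.19, adjusted p = 0.257 by edgeR), so a difference between the genotypes in this rise was not called.

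Ccnd3 (ENSMUSG00000034165; GRCm38 chromosome 17, 47505051 to 47599691, plus strand), for cyclin D3, passed the edgeR threshold in none of the 10 comparisons in the fit of all 24 libraries. Its group means ran from 137 ± 29.9 CPM in P28 WT to 192 ± 22.9 CPM in P28 ME induced at E10.5 (SD, n = 4), and every step between neighbouring groups in that order overlapped. P28 WT held 126, 100.1, 156 and 166 CPM, and ME induced at P0 held 169, 179, 184 and 205 CPM. Those 2 groups did not overlap, as was so for 24.8% of all genes, and the log2 fold change was 0.43 (SE 0.19, edgeR adjusted p = 0.200). Limma voom called it at an adjusted p of 0.0134, and it also called the difference after induction at E10.5 (log2 fold change 0.55, adjusted p = 0.00308), for which edgeR gave 0.48 (SE 0.19, edgeR adjusted p = 0.0924). Fits of only the 2 groups compared called both with edgeR. They gave 0.37 after induction at P0 (edgeR adjusted p = 0.0467) and 0.41 after induction at E10.5 (edgeR adjusted p = 0.0375). Bysl, opposite to Ccnd3 over 361 bp (4.11%) of its exons, was called higher with ME induced at E10.5 than in P28 WT (1.00 in log2, SE 0.29, edgeR adjusted p = 0.0256).

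Of the 2 kinases that D cyclins activate, Cdk4 was by far the more abundant message per length. Cdk4 ran from 152 to 302 RPKM over the 24 libraries and Cdk6 from 4.55 to 11.9 RPKM. Cdk4 (ENSMUSG00000006728; GRCm38 chromosome 10, 127063534 to 127067920, plus strand) is also a known target of MYC, which binds the E-box letters CACGTG. The 249 bases before its RefSeq start are chr10:127063285-127063533 (GRCm38.p6, plus strand) and lie outside the annotated exons of Cdk4 itself. They are shown because they hold 4 CACGTG sites, at 172, 118, 98 and 11 bases before the start. Capitals mark these sites and 1 GC box at 80 bases, written here on its other strand as CCGCCC.

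Cdk4: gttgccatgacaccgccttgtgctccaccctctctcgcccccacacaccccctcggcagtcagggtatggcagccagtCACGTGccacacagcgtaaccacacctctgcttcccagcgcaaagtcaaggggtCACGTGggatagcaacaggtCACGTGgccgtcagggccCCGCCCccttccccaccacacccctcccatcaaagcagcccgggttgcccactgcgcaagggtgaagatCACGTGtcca

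The background was 32851 promoter windows, each the 250 bases before a start. CACGTG, which reads the same on both strands, occurred in 6.02% of them, and 7 of those windows (0.0213%) held 4 or more sites. GGGCGG, searched on both strands, occurred in 32.7%. A RefSeq promoter was matched for 7 of the 10 genes, and of these only Cdk4 and Cdk6 held CACGTG, Cdk6 once. At P0, Myc itself stood at 213 ± 37.6 CPM in ME and 260.1 ± 93.9 CPM in WT (SD, n = 4), a log2 fold change of -0.29 (SE 0.23, adjusted p = 0.606 by edgeR). The letters describe the window and no binding was measured.

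Cdk4 was lower in ME than in WT among newborn liver cells. P0 WT held 623, 768, 855 and 981 CPM, and P0 ME held 495, 553, 524 and 549 CPM. Every ME library stood below every WT library, as 3.74% of all genes did in either direction, and the 4 ME libraries lay close together. The level was 1.52-fold lower, a log2 fold change of -0.61 (SE 0.13, adjusted p = 0.0268 by edgeR). The call was lost without ME library 1 or 3 (highest adjusted p = 0.0684), with limma voom (-0.51, adjusted p = 0.208), with no filter (-0.63, adjusted p = 0.0569) and in a fit of these 2 groups alone (-0.60, adjusted p = 0.911). It was -0.68 without both libraries numbered 1 (edgeR adjusted p = 0.0118), and -0.54 without P0 WT library 4 (edgeR adjusted p = 0.0423). Of the 62 cell type markers, Mecom, a stem cell gene, was the 1 called at P0 (1.62 in log2, SE 0.24, edgeR adjusted p = 0.000993). Cd34 (-0.79, edgeR adjusted p = 0.0682) and the mast cell genes Cpa3 (-3.72, edgeR adjusted p = 0.0740) and Fcer1a (-5.16, edgeR adjusted p = 0.0887) were not called, though their libraries did not overlap between ME and WT. The part of such cells in the level of Cdk4 was not tested. Tspan31, a gene on the opposite strand that shares 641 bp (19.7%) of the Cdk4 exons, stood at 122 ± 21.6 and 123 ± 10.6 CPM in the same groups (SD, n = 4).

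At P28, Cdk4 was not called in any ME group against WT. The P28 WT libraries held 589, 703, 640 and 635 CPM, and ME induced at E10.5 held 682, 711, 629 and 567 CPM. With ME induced at P0 the values were 532, 560, 539 and 618 CPM, and in RLT Vav Txp 663, 711, 616 and 581 CPM. All 3 groups overlapped P28 WT, and the log2 fold changes were 0.01, -0.19 and 0.00, with SEs of 0.13 and edgeR adjusted p of 0.971, 0.439 and 0.998. From P0 to P28 in WT, Cdk4 differed by -0.33 in log2 (SE 0.13, edgeR adjusted p = 0.129), and by -0.44 without P0 WT library 1, which was called (edgeR adjusted p = 0.0256). The interaction for Cdk4 was 0.62 (SE 0.18, edgeR adjusted p = 0.0977), and 0.72 without the same library, which was called (edgeR adjusted p = 0.0345).

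Cdk6 (ENSMUSG00000040274; GRCm38 chromosome 5, 3341485 to 3531008, plus strand) was not called by edgeR in the fit of all 24 libraries. ME induced at P0 held 117, 122, 127 and 110.1 CPM at P28, above the P28 WT libraries at 92.5, 86.8, 86.1 and 77.7 CPM. The log2 fold change was 0.47 (SE 0.22, edgeR adjusted p = 0.234), while limma voom gave an adjusted p of 0.0439 and a fit of these 2 groups alone an edgeR adjusted p of 0.00333. ME induced at E10.5 held 63.7, 93.4, 109 and 77.3 CPM, so that it too lay below induction at P0 in every library. Libraries of these induction times did not overlap for 11.8% of all genes. Induction at P0 against E10.5 gave a log2 fold change of 0.47 (SE 0.22), not called by edgeR. Limma voom called it (0.51, adjusted p = 0.00796), as did a fit of these 2 groups alone (0.53, edgeR adjusted p = 0.0319). Gm17590, opposite to Cdk6 over 368 bp (2.63%) of its exons, was called lower with ME induced at E10.5 than in WT (-3.38 in log2, SE 0.83, edgeR adjusted p = 0.0102), where Cdk6 gave 0.00 (SE 0.22). The RLT Vav Txp libraries fell into a high pair, 166 and 136 CPM, and a low pair, 76.8 and 68.2 CPM.

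The ratio of the kinases within a library does not depend on scaling. Cdk6 counts were 15.7%, 12.3%, 13.5% and 12.2% of Cdk4 counts in P28 WT and 21.9%, 21.8%, 23.5% and 17.8% with ME induced at P0. These ranges did not overlap. The means were 13.4% ± 3.26 with ME induced at E10.5, 17.6% ± 7.72 in RLT Vav Txp and, at P0, 16.7% ± 3.81 in ME and 12.1% ± 3.47 in WT (SD, n = 4). No test was run on the ratio.

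Of the CIP/KIP inhibitors, Cdkn1c (ENSMUSG00000037664; GRCm38 chromosome 7, 143458339 to 143461050, minus strand) followed age and tissue. It codes for p57 and is an imprinted gene expressed from the maternal copy. P0 WT held 35.9, 33.4, 28.5 and 40.3 CPM and P0 ME held 41.4, 45.8, 30.7 and 43.0 CPM. All 16 P28 libraries lay between 16.0 and 23.0 CPM, below every P0 library. The log2 fold change from P0 to P28 was -0.93 in WT (SE 0.18, adjusted p = 0.00170 by edgeR) and -1.11 in ME induced at E10.5 (SE 0.18, adjusted p = 0.000152 by edgeR). Both stayed called without any 1 library, and the WT call was lost when only the WT groups were fitted (-0.91, edgeR adjusted p = 0.0585). The P0 libraries numbered 1, whose erythroid and macrophage sums were low, held 35.9 and 41.4 CPM and so stood with the other P0 libraries.

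At P28 the group means of Cdkn1c ran from 18.1 ± 1.91 CPM in WT to 20.3 ± 3.03 CPM with ME induced at P0 (SD, n = 4). The noncoding RNA Kcnq1ot1, which is made from the paternal copy of the same imprinted domain and silences it there, did differ. Kcnq1ot1 averaged 32.6 ± 5.76 CPM in P28 WT, 4.35 ± 1.53 with ME induced at E10.5, 7.38 ± 1.51 with ME induced at P0 and 14.5 ± 7.20 in RLT Vav Txp (SD, n = 4). Its log2 fold changes against P28 WT were -2.90 (SE 0.31, edgeR adjusted p = 6.17e-06), -2.14 (SE 0.30, edgeR adjusted p = 0.000873) and -1.17 (SE 0.29, edgeR adjusted p = 0.0185). Those of Cdkn1c were 0.03, 0.17 and 0.15, each with an SE of 0.18 and none called. Of the other 7 listed neighbours of Cdkn1c, Nap1l4 was higher with ME induced at E10.5 (log2 fold change 0.60, SE 0.15, edgeR adjusted p = 0.0112), and Slc22a18 was lower in RLT Vav Txp (-1.17, SE 0.26, edgeR adjusted p = 0.00875).

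Cdkn1b (ENSMUSG00000003031; GRCm38 chromosome 6, 134920401 to 134925513, plus strand), for p27, was low and uneven. The P0 libraries held 10.6, 6.07, 5.20 and 24.5 CPM in WT and 15.5, 10.9, 6.08 and 18.1 CPM in ME. At P28, WT held 7.94, 16.1, 6.65 and 7.33 CPM and ME induced at E10.5 held 5.29, 6.49, 4.08 and 5.93 CPM. Those P28 groups did not overlap, which was so for 28.2% of all genes, and the log2 fold change was -0.80 (SE 0.44, edgeR adjusted p = 0.243). In ME induced at E10.5 the log2 fold change from P0 to P28 was -1.21 (SE 0.44, adjusted p = 0.0545 by edgeR), and 7 of 9 other settings called it, DESeq2 among them (-1.28, adjusted p = 0.0197). Induction at P0 gave 7.75, 8.05, 7.96 and 7.11 CPM, the narrowest range, and RLT Vav Txp 3.77, 6.69, 4.51 and 11.2 CPM.

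Of the INK4 genes, Cdkn2c (ENSMUSG00000028551; GRCm38 chromosome 4, 109660876 to 109667189, minus strand), for p18, varied most among the members other than Cdkn2a. Its highest group mean was 9.96-fold its lowest. P0 WT held 2.37, 11.2, 7.65 and 4.79 CPM, P0 ME 6.60, 10.0, 11.7 and 16.6 CPM and P28 WT 16.4, 25.5, 25.2 and 17.6 CPM. ME induced at E10.5 held 19.8, 22.0, 20.7 and 22.9 CPM at P28, and ME induced at P0 held 19.9, 15.6, 23.1 and 25.5 CPM. RLT Vav Txp held 70.9, 60.8, 72.9 and 54.2 CPM, far above all other libraries. Cdkn2c was the 1 member without overlap against P28 WT, where 11.5% of all genes did not overlap, and against ME induced at P0, where 24.3% did not.

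Against P28 WT, RLT Vav Txp was 3.05-fold higher in Cdkn2c (log2 fold change 1.61, SE 0.32, edgeR adjusted p = 0.00287). Against ME induced at E10.5 the log2 fold change was 1.60 (SE 0.32, edgeR adjusted p = 0.00164). Against ME induced at P0 it was 1.62 (SE 0.32, edgeR adjusted p = 0.00198), the 1 member called in a comparison that called 11.7% of all genes. The calls stood under the 7 other settings that include these groups and without any 1 library, with log2 fold changes of 1.48 to 1.72 when 1 library was left out. All 3 use the same RLT Vav Txp libraries.

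The macrophage markers were also higher in RLT Vav Txp than in P28 WT, 7 of 8 of them called. The macrophage sums of its libraries 1 to 4 were 2476, 576, 1765 and 1473 CPM and the erythroid sums 962, 825, 1615 and 1305 CPM. At P0, the 6 libraries with macrophage sums of 1099 to 1549 CPM held 4.79 to 16.6 CPM of Cdkn2c, below every P28 library of RLT Vav Txp. The RLT Vav Txp library with the lowest macrophage sum, number 2, held 60.8 CPM. Of megakaryocyte markers, 3 of 5 tested were called higher, with sums of 223 to 458 CPM against 57.9 to 70.8 CPM in P28 WT, and 0 of 8 neutrophil markers were called, with sums of 1937 to 6534 against 699.7 to 890.4 CPM. Over all 62 markers, 14 were called higher and 3 lower. Fcer1a of mast cells was higher (7.36 in log2, edgeR adjusted p = 0.00718), as was Slamf1 of stem cells (2.25, edgeR adjusted p = 0.00573). So were the erythroid Epb42 (2.73, edgeR adjusted p = 0.0134) and the hepatocyte gene Trf (1.21, edgeR adjusted p = 0.017). The stem cell gene Hlf was lower (-1.20, edgeR adjusted p = 0.000101), as were Flt3 and Cd34. The part of these cell types in the level of Cdkn2c was not tested beyond these values.

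**Figure D4:**
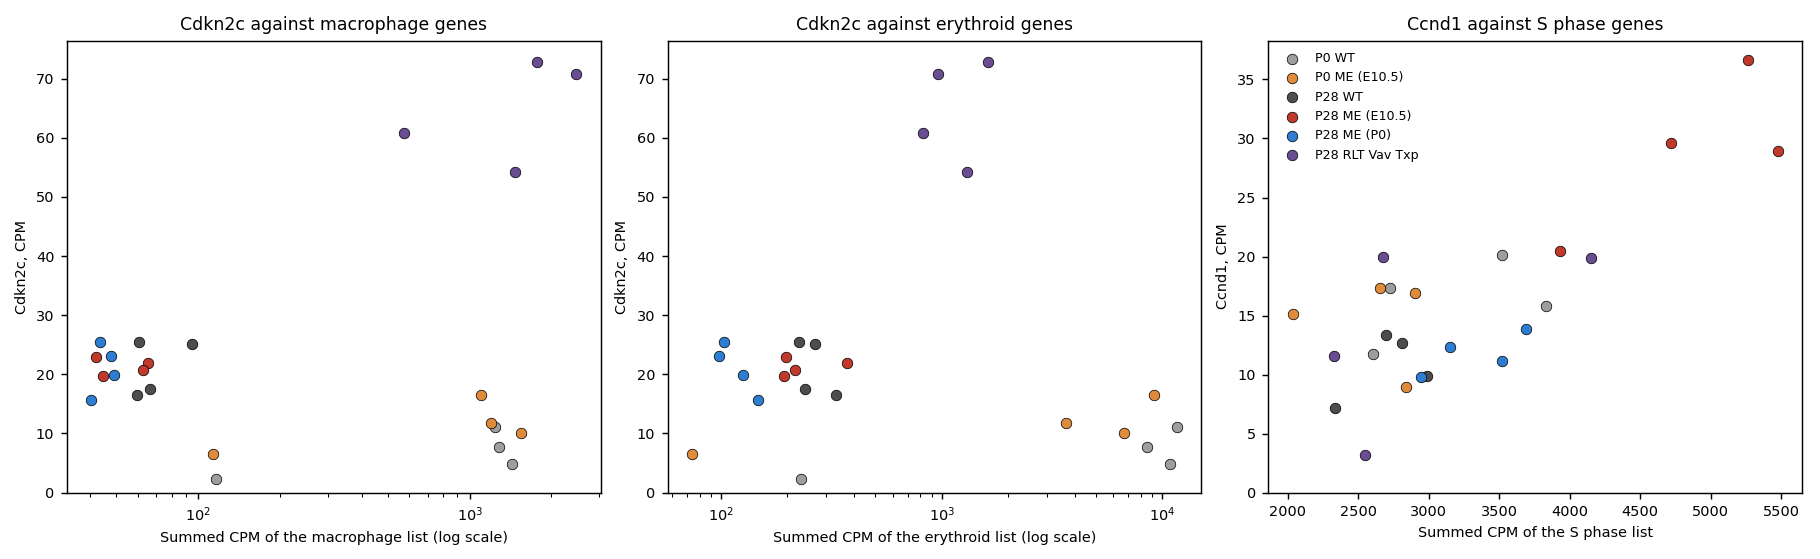
Cdkn2c in CPM (y axis) against the summed CPM of 8 macrophage markers (left, log x axis) and 8 erythroid markers (middle, log x axis), and Ccnd1 in CPM against the summed CPM of 12 S phase genes (right, linear x axis), with 1 point per library coloured by group. The 6 P0 libraries with macrophage sums of 1099 to 1549 CPM lie at 4.79 to 16.6 CPM of Cdkn2c, while the 4 RLT Vav Txp libraries lie at 54.2 to 72.9 CPM.

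Cdkn2c also rose from P0 liver to P28 marrow. The log2 fold change was 1.70 in WT (SE 0.32, edgeR adjusted p = 0.00156) and 0.93 in ME induced at E10.5 (SE 0.32, edgeR adjusted p = 0.0425). No P28 library of either genotype overlapped its P0 group, except that the ranges came close in ME (6.60 to 16.6 against 19.8 to 22.9 CPM). The WT call held without any 1 library and was lost when only the WT groups were fitted (1.72, edgeR adjusted p = 0.0651). The ME call held in 2 of the 8 fits that left out 1 library (lost without P0 ME 1, 2 or 3 and without P28 ME 2, 3 or 4), with log2 fold changes of 0.75 to 1.18. It was also lost with RLE scaling (0.86, edgeR adjusted p = 0.0594) and in a fit of the 20 libraries with a labelled number (0.92, edgeR adjusted p = 0.0621). Without both P0 libraries numbered 1, the log2 fold changes were 1.42 in WT (edgeR adjusted p = 0.000692) and 0.74 in ME (edgeR adjusted p = 0.0413). The P0 WT library numbered 1 was the lowest of all 24. Within P0, the ME minus WT difference in Cdkn2c was 0.79 in log2 (SE 0.32, edgeR adjusted p = 0.253).

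Cdkn2d (ENSMUSG00000096472; GRCm38 chromosome 9, 21288410 to 21291407, minus strand), for p19, moved the other way with age and tissue. P0 WT held 75.0, 87.4, 87.1 and 153 CPM and P0 ME held 68.1, 98.1, 68.4 and 76.8 CPM, while the 16 P28 libraries lay between 41.5 and 62.9 CPM, below every P0 library. The log2 fold change was -0.997 in WT (SE 0.18, edgeR adjusted p = 0.00102) and -0.52 in ME induced at E10.5 (SE 0.18, edgeR adjusted p = 0.0451). The WT call held without any 1 library and was lost when only the WT groups were fitted (-0.98, edgeR adjusted p = 0.0560). The ME call held in 2 of the 8 fits that left out 1 library (lost without P0 ME 2 or 4 and without any of the 4 P28 ME libraries), with log2 fold changes of -0.57 to -0.38. It was also lost with no filter on low counts (-0.53, edgeR adjusted p = 0.0891). Without P0 WT library 4, the highest, the WT value was -0.74 (edgeR adjusted p = 0.00339), and without both P0 libraries numbered 1 the values were -1.115 in WT (edgeR adjusted p = 0.00017) and -0.58 in ME (edgeR adjusted p = 0.0260).

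The counts of these INK4 genes can be set against each other within a library. At P0, Cdkn2c counts were 14.7% ± 5.74 of Cdkn2d counts in ME and 6.97% ± 4.70 in WT. At P28 they were 41.8% ± 5.82 in WT, 39.3% ± 2.39 with ME induced at E10.5 and 38.6% ± 7.66 with ME induced at P0 (SD, n = 4). In RLT Vav Txp they were 124% ± 33.4 (SD, n = 4). There Cdkn2c counts exceeded Cdkn2d counts in 2 of the 4 libraries and lay at 96.6% and 98.5% in the others. These ratios of counts are not corrected for exon length, 2686 bp for Cdkn2c and 1574 bp for Cdkn2d. Per length, Cdkn2c held 26.4, 22.6, 27.1 and 20.2 RPKM in RLT Vav Txp. Cdkn2d held 33.2, 40.0, 27.8 and 35.0 RPKM, above Cdkn2c in every library of the group. Between the ages in E10.5-induced ME, 8 of 8 macrophage, 8 of 8 neutrophil and 6 of 8 erythroid markers were called lower at P28, and in WT 7, 6 and 6 of 8. The hepatocyte list was lower at P28 for 8 of 8 markers in ME and 5 of 8 in WT, the lymphoid list for 5 of 6 in both, and the mast cell list for 4 of 6 and 3 of 6, while 2 of 5 gate markers in ME and 1 of 5 in WT were higher. The part of those cells in the age differences was not tested.

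Cdkn2a (ENSMUSG00000044303; GRCm38 chromosome 4, 89274471 to 89294653, minus strand), the gene for p16 and, in another reading frame, p19ARF, was at or near 0. It held 0 to 30 counts per library, at most 0.755 CPM. The highest libraries were RLT Vav Txp 3 with 30 counts, P28 WT 1 with 27, P28 ME induced at P0 number 3 with 15 and RLT Vav Txp 2 with 14. Each group with such a library also had a library with 0 counts. A floor of 3 counts, which covers counting error only, was not passed in 15 of the 24 libraries, so no fold change is given. The gene-level counts do not separate p16 from p19ARF. Its neighbour Cdkn2b, for p15, held 0 to 5 counts in the libraries of the other groups and 2 to 73 counts in RLT Vav Txp, and did not pass the filter.

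Downstream and upstream of the members, the same comparisons gave these counts in lists of the pathway. At P28, ME induced at E10.5 was higher than WT for 7 of 13 pocket protein and E2F genes, with none lower, where 12.3% of all genes were called, and a list median of 0.62 on the log2 scale against -0.10 over all genes. E2f8 (1.22, SE 0.33) and E2f2 (1.19, SE 0.37) rose, as did Rbl2 (0.92, SE 0.28), a pocket protein of resting cells, and E2f4 (0.65, SE 0.19). The next list held Cdk2, for the kinase that acts after CDK4 and CDK6, with the genes of its cyclins and Cdc25a. In it 2 of 5 were higher, Ccna2 (0.81, SE 0.19) and Cdc25a (0.79, SE 0.22). In the list of genes for the turnover of p27 and D cyclins, 4 of 8 were higher and 1 lower. Ambra1 (1.02, SE 0.30), an adaptor for the destruction of D cyclins, and Skp2 (0.83, SE 0.19), which marks p27 for destruction, rose, and Skp1a fell by 0.66 (SE 0.19). The edgeR adjusted p of these 9 genes ran from 0.00714 to 0.0347.

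S phase and mitosis genes were higher in the same group. Of 12 S phase genes 7 were called higher, led by Mcm2 (log2 fold change 1.40, SE 0.28, edgeR adjusted p = 0.00337), and of 8 mitosis genes 7, led by Plk1 (1.25, SE 0.23, edgeR adjusted p = 0.00220), with list medians of 0.91 and 1.04 against -0.10 over all genes. Their summed level was 3933 to 5476 CPM for S phase in E10.5-induced ME, against 2337 to 2990 CPM in P28 WT, without overlap. Ccnd1 stood above WT in the same 4 libraries, and the relation of Ccnd1 to the sums was not tested. Of the 11 upstream genes, 3 were called higher: Stat5b (0.88, SE 0.27), Stat5a (0.75, SE 0.19) and Ezh2 (0.54, SE 0.17). Myc, given here for the E-boxes of Cdk4, was not called, with 0.67 on the log2 scale (SE 0.23, adjusted p = 0.0540 by edgeR).

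In the other comparisons with WT the pathway lists held few calls. They comprise 68 tested genes besides the imprinted neighbours. At P0, 0 of the 68 were called by edgeR, against 0.642% of all genes. At an unadjusted p under 0.05 there were 11 (4 higher and 7 lower), a level reached by 14.1% of all genes. With ME induced at P0, 0 of the 68 were called, against 1.57% of all genes. At an unadjusted p under 0.05 there were 27 (22 higher and 5 lower), against 20.2% of all genes. In RLT Vav Txp 2 of the 68 were called, a share below the 4.12% of all genes called. Ccne1, for the cyclin E1 partner of CDK2, was higher (1.29, SE 0.32, edgeR adjusted p = 0.0179). Gfi1, a repressor that restrains stem cell cycling, was lower (-1.47, SE 0.20, edgeR adjusted p = 6.43e-05). Against ME induced at E10.5, RLT Vav Txp was lower for 7 of 12 S phase and 6 of 8 mitosis genes, where 17.9% of all genes were called.

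Between P0 liver and P28 marrow in WT, 7 of the 68 were called, all lower at P28, a share near the 7.68% of all genes called. They included Cdkn1a, for the CIP/KIP inhibitor p21 (log2 fold change -1.50, SE 0.43, edgeR adjusted p = 0.0329), E2f2 (-1.80, SE 0.37, edgeR adjusted p = 0.00335), Ccne1 (-1.29, SE 0.32, edgeR adjusted p = 0.0130) and Ccnb1 (-1.09, SE 0.18, edgeR adjusted p = 0.000431). In ME induced at E10.5, 28 of the 68 were called, with 8 of 12 S phase genes and 5 of 8 mitosis genes higher at P28, against 18.2% of all genes called. Cdkn1a was lower there too (-1.28, SE 0.43, edgeR adjusted p = 0.0400), and Myc was higher (1.61, SE 0.23, edgeR adjusted p = 5.35e-05). The interaction was called for 6 of the 68 and 0.720% of all genes, among them Mcm4 (1.51, SE 0.32, edgeR adjusted p = 0.0302), Bub1 (1.29, SE 0.29, edgeR adjusted p = 0.0407) and Rbl1 (0.76, SE 0.18, edgeR adjusted p = 0.0439).

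Across the 24 libraries the members followed few common patterns. Cdkn1c and Cdkn2d went together (Pearson r = 0.81 of log2 CPM) and Ccnd2 went against Cdkn1c (r = -0.79). The libraries fall into groups by age and genotype, so these describe the 24 values and carry no test. Among 9678 genes whose log2 CPM averaged 3 or more, the closest to Ccnd2 were Prmt3 (r = 0.95) and Nfic (0.93), and to Cdkn2c Sdsl (0.94) and Gbp8 (0.89). Closest to Cdkn1c were Serinc1 (0.93) and Riok3 (0.89), to Cdkn2d Vamp3 (0.89) and Eif4e2 (0.89), and to Cdk4 Osgep (0.92) and Pih1d1 (0.91). For Ccnd1 they were Pold3 (0.86), a subunit of DNA polymerase delta, and BC055324 (0.81). Ccnd3 was closest to E2f4 (0.87) and Usp39 (0.86), Cdkn1b to Fam174a (0.82) and Mettl18 (0.80), and Cdk6, the least like any other gene apart from Cdkn2a, to Rell1 (0.74) and Inafm2 (0.65).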

How the data were processed

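Total RNA was sequenced from 24 mouse libraries. The authors deposited raw read counts per gene in 1 table, whose 24 sample columns were all used; STAR 2.7.9a, Subread, featureCounts 2.0.3 and GRCm38 are named per the submitters' processing notes. The strand setting and the handling of reads with several matches were not given in the sources used here. Of 55774 entries, 287 repeats of an identifier were dropped.

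Genes were kept by filterByExpr (minimum count 10), scaled by TMM and fitted with the robust quasi-likelihood model of edgeR 4.0.16 in R 4.3.3 on all 24 libraries with 1 mean per group (18 residual degrees of freedom). Calls used a Benjamini-Hochberg adjusted p under 0.05 over all genes tested in each of 10 comparisons. Levels are TMM-scaled CPM, and RPKM divides them by the exon length in GENCODE M21. Log2 CPM used a prior count of 2. Depth was 31233688 to 89774511 counts per library.

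The members, the lists and the tests were chosen with earlier results of these data known. All 10 members are described. From each list at most 4 called genes per comparison were named, those with the largest change, and for each member the 2 genes with the highest r, leaving out predicted, immunoglobulin, T-cell receptor and sex-linked marker genes. Myc, genes that overlap a member and single markers were named beside this rule, after their values were seen. The procedure was tested on simulated data for ME induced at E10.5 against WT at P28. It recovered 25 of 67 changes of 2-fold, 49 of 67 of 4-fold and 56 of 66 of 8-fold. It called 1 of 22268 unchanged genes. A gene that was not called can therefore still differ by 2-fold. The simulation changed 200 genes, fewer than the 2827 called in the data, so its rates need not hold there. Alternatives were RLE scaling, plain totals, DESeq2 1.42.0, limma 3.58.1 (voom with quality weights), 2 other filters, fits of fewer groups, leaving out each library in turn, and a replicate block. In none of 10 pairs of groups did every same-numbered pair of libraries correlate above 0.1, and by this rule the numbers were used only as names. The rule cannot tell whether some of the libraries were paired. Promoters were read from RefSeq. Figures were drawn with Python 3.11.15 and matplotlib 3.10.9.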

Additional observations from a re-analysis of the deposited data

Results flagged for a closer look

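In 4 of 60 sets of 4 libraries, 1 library stood far from the other 3, where chance alone gives about 1 in 20, or 3 of 60. Cdkn1b was 16.1 CPM in P28 WT library 2, against 6.65 to 7.94 CPM in the other WT libraries. Cdkn1c was 16.0 CPM in RLT Vav Txp library 1, against 21.2 to 22.0 CPM in the other libraries of that group. Cdkn2a was 0.132 CPM in library 2 of P28 ME induced at E10.5, against 0 to 0.0208 CPM, all of them values near 0. Cdkn2d was 153 CPM in P0 WT library 4, against 75.0 to 87.4 CPM.

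Members for which the effects of 2 ME groups against the same P28 WT libraries differed by a test of the difference were Ccnd1 and Cdkn2c. Ccnd1 differed by -1.08 on the log2 scale between RLT Vav Txp and ME induced at E10.5. Cdkn2c differed by 1.60 between the same groups and by 1.62 between RLT Vav Txp and ME induced at P0.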

How the results depend on the processing

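The other settings gave 541 values for 29 pairs of a member and a comparison. Of these values, 466 kept their direction and their side of the threshold, 42 lost a call, 32 gained one and 1 turned sign. The pairs were those with an unadjusted p under 0.05 by edgeR in the fit of all 24 libraries. Calls gained by other pairs are not among the 32, but the counts of members called below include them. The cause was not tested for any change. With limma voom, 0 members were called at P0, 3 after induction at E10.5 against WT, 2 after induction at P0 against WT, 3 between the induction times, and 4 and 2 in RLT Vav Txp against induction at E10.5 and at P0. With no filter on low counts, 0 were called at P0 and 1 in RLT Vav Txp against induction at E10.5. With only the groups compared in the fit, and so fewer libraries to estimate the spread, 0 were called at P0, 3 after induction at E10.5, 3 after induction at P0, 2 between the induction times, 1 in RLT Vav Txp against induction at E10.5 and 0 between the ages in WT. Leaving out each library in turn gave 0 to 1 members at P0, 0 to 2 after induction at E10.5, 1 to 3 in RLT Vav Txp against induction at E10.5, 3 to 5 between the ages in WT, 2 to 4 between the ages in ME and 0 to 1 for the interaction, and left the other counts as they were.

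In 0 of 10 pairs of groups did every same-numbered pair of libraries correlate above 0.1, over a range of -0.39 to 0.66. Between the P0 groups all 4 correlations were above 0 (0.0531 to 0.66), and 3 of 4 libraries were most like the one of the same number. In a fit of the 20 libraries with a labelled number, 1 member was called for the interaction without the replicate block (Ccnd1, 1.58, edgeR adjusted p = 0.0311), and 1 with the replicate block (Ccnd1, 1.60, edgeR adjusted p = 0.0414).

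Of the settings chosen after seeing the data, the fit with only the P0 libraries numbered 1 left 1 library per genotype at P0, which was assumed to vary like the other groups, so its lost calls say nothing about stability. It called 0 members at P0 and 2 between the ages in WT, and Cdk4 turned from -0.33 to 0.0992 there (edgeR adjusted p = 0.877). Without both of those libraries, 5 members were called between the ages in WT, Cdk4 among them. The count of all genes called moved more than the members: at P0 from 148 to between 5 (only the groups compared) and 804 (DESeq2), after induction at E10.5 from 2827 to between 893 (without P28 WT library 2) and 6492 (voom), and after induction at P0 from 362 to between 7 (without P28 ME induced at P0 number 3) and 5196 (only the groups compared). For RLT Vav Txp against WT it moved from 950 to between 635 and 1644, between the induction times from 11 to between 4 and 2326, and for RLT Vav Txp against induction at E10.5 and at P0 from 4122 to between 2061 and 8053 and from 2687 to between 1288 and 7401. Between the ages it moved from 1771 to between 481 and 2797 in WT and from 4206 to between 1149 and 5909 in ME, and for the interaction from 166 to between 11 and 1653 (without P0 WT library 4). Plain library totals in place of TMM moved the median over all genes by more than 0.1 (log2) in 5 comparisons, such as from -0.10 to -0.23 after induction at E10.5. Cdkn2a alone held 3 counts or fewer in any library, in 15 of the 24. It held 5 counts in the smallest library, P28 WT 2.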
